A study of Mus musculus with 32 samples.

Results

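Gastrocnemius (GAS) muscle at 28 d post denervation was compared with GAS muscle at 0 d by RNA sequencing, with 4 samples in each group. These 8 samples belong to a series of 32 samples from 8 time points. Genes with an FPKM (fragments counted relative to exon length and to the depth of a library) of at least 0.1 in at least 4 of the 8 samples were kept, which left 18088 of 33397 genes, and the other 15309 genes were not tested. All mice were male, of the strain labelled C57BL/6 and aged 6 to 8 weeks. The labels give sciatic nerve transection as the treatment and gastrocnemius muscle as the tissue of both groups, day 0 included, and the groups differ only in the labelled time, Day0 or Day28. The methods of the study describe cutting out a piece of the sciatic nerve on the left side and name a sham group, and the columns of the day 0 samples are headed C. Whether the day 0 mice had a sham operation is not stated in the labels. The columns name the time point and not the animal, so that p-values measure the spread between these samples only. Day 28 mice were also older at sampling if all were operated on at a like age, and age and denervation then cannot be told apart.

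A muscle fibre is kept in its adult state by its motor nerve. In innervated muscle, the acetylcholine receptor is confined to the synapse and carries the adult epsilon subunit, while the receptor of fetal and denervated fibres carries the gamma subunit and is made along the whole fibre. Loss of nerve activity is known to relieve repression of Myog, the gene of the myogenic regulatory factor myogenin, through histone deacetylases and Dach2, and denervated muscle is known for loss of mass by proteasome and lysosome dependent proteolysis.

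The depth recovered from the FPKM values was 14916104 to 15864389 fragments per sample at day 0 and 16520314 to 17516220 at day 28. Pearson's r of log2(FPKM + 1) over 12069 genes was 0.987 to 0.992 within a group and 0.892 to 0.913 between groups, and no pair of samples differed by as little as sampling noise. Markers of skeletal muscle fibres summed to an FPKM of 34791 to 38986 at day 0 and 25611 to 27975 at day 28. The extract protocol in the labels names retinas. Of 12 retina markers, 3 passed the filter, none of them was called, and the sum over the list was 4.22 to 5.22 at day 0 and 3.92 to 6.43 at day 28. Fragments of the mitochondrial genome made up 14.5% to 18.2% of the total at day 0 and 9.34% to 11.7% at day 28, with no overlap.

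A gene was called when the Benjamini-Hochberg adjusted p of limma's test was under 0.05 and the difference on the log2(FPKM + 1) scale was at least 1.5-fold. On that scale the change of genes with low values is understated. At day 28, 3155 genes (17.4%) were called higher and 906 genes (5.01%) lower than at day 0. All 4 day 28 values lay above all 4 day 0 values for 7826 genes (43.3%), and below them for 1939 genes (10.7%). Among the 11859 genes that averaged an FPKM of 1 or more, the median difference was 0.29 on the log2 scale. Over all genes tested it was 0.20, and 73.3% of the genes had a positive sign. Each sample was instead divided by its median ratio to a common reference (median-ratio scaling). The median was then -0.01 among the 11859 genes and 0.01 over all genes tested, and 1385 genes (7.66%) were called higher and 1756 genes (9.71%) lower. The share of called genes that were higher was 77.7% with the deposited scaling and 44.1% with median-ratio scaling. All 1385 genes of the second scaling were also called higher with the first, all 906 genes called lower with the first were also called lower with the second, and 0 genes were called in opposite directions. Counts below use the deposited scaling, and the count with median-ratio scaling follows where the split between directions depends on it. Counts for a list stand against 17.4% higher and 5.01% lower over all genes, and with median-ratio scaling against 7.66% and 9.71%. Of the 9 muscle fibre markers, 4 (44.4%) rose and 4 (44.4%) fell, and 1 rose and 4 fell with median-ratio scaling. A gene that stayed under the FPKM filter in all 4 samples of a group passed it only through the other group. Chrng, Krt8 and Gzmb did so through day 28, and Dach2 through day 0. In bulk tissue, fewer cells of a type and less RNA per cell cannot be told apart.

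**Figure D1:**
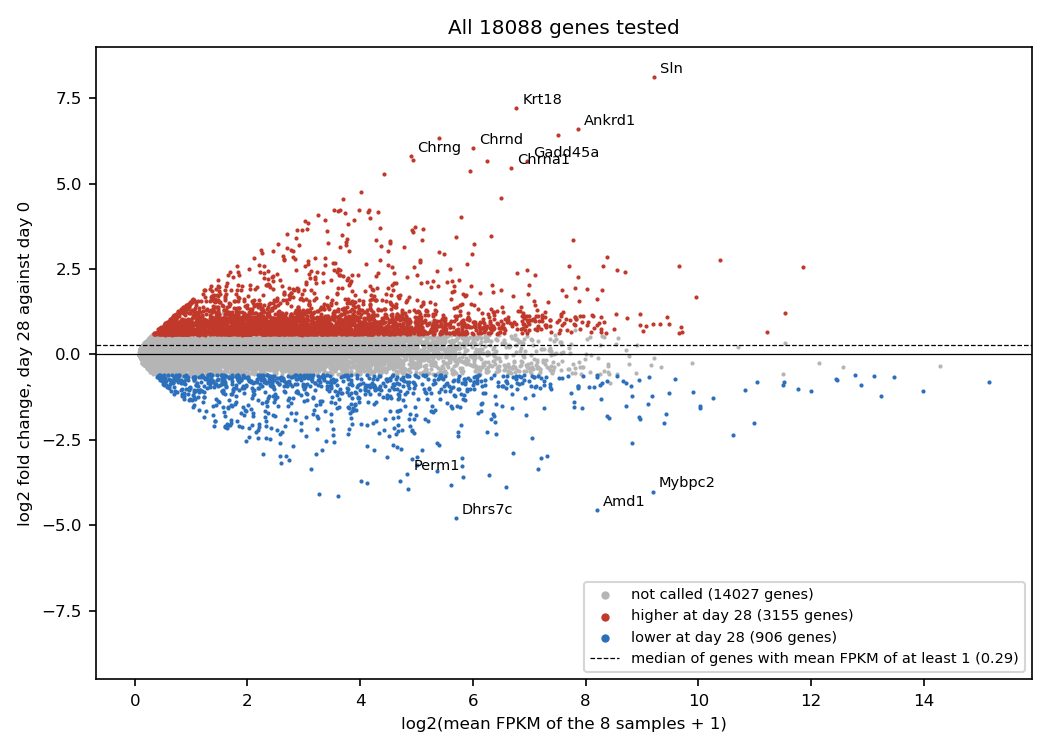
Log2 fold change of each of the 18088 genes tested (vertical axis, day 28 against day 0) by log2 of the mean FPKM of the 8 samples plus 1 (horizontal axis). Red points are the 3155 genes called higher, blue points the 906 called lower and grey points the genes not called, and the dashed line is the median of 0.29 for genes that averaged 1 or more. Sln, Krt18 and Ankrd1 lie at the top and Dhrs7c and Amd1 at the bottom.

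The subunits of the muscle acetylcholine receptor were among the genes with the largest differences. Of the 18 tested genes for the acetylcholine receptor and the synapse, 9 (50%) rose and 3 (16.7%) fell, against 17.4% and 5.01% over all genes, and 8 rose and 3 fell with median-ratio scaling. The median log2 fold change of the list was 0.55, against 0.20 over all genes tested. Sequences from 250 bases before to 50 bases after the start given by RefSeq are shown for the alpha, beta and gamma subunits and for Myog. These genes were picked because they rose. The delta subunit had no entry among the promoters, and the epsilon subunit is not shown. Myogenic factors are known to bind the E-box, whose letters are CANNTG, and binding was not tested here. The sequences were taken from RefSeq (GRCm38.p6). Its start for Chrng lies inside the longer gene interval given with its values, so that this stretch is not at the start of that interval. Capitals mark each match of CANNTG, which reads the same on both strands, and CAGCTG is a special case of it. Of 32851 promoters of this length in the table, 72.3% held at least 1 CANNTG and 16.3% at least 1 CAGCTG, so that a match describes the letters and no more. The Chrna1 promoter (chr2:73580289-73580588, minus strand) held 3 matches, the Chrnb1 promoter (chr11:69795888-69796187, minus strand) 3, the Chrng promoter (chr1:87205561-87205860, plus strand) 3 and the Myog promoter (chr1:134289754-134290053, plus strand) 2. CAGCTG stood in the promoters of Chrna1 and Chrng, at 2 places each.
Chrna1: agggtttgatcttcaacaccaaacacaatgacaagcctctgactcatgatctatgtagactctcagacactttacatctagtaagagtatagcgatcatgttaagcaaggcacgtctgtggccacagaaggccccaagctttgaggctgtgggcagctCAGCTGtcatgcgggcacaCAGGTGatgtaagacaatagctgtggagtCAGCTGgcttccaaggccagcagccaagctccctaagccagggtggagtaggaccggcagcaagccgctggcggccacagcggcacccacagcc
Chrnb1: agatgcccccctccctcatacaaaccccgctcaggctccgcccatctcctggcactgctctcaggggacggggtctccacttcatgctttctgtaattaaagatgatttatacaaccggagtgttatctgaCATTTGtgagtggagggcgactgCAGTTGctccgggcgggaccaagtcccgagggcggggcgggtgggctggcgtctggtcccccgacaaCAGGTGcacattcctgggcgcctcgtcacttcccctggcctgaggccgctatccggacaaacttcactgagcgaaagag
Chrng: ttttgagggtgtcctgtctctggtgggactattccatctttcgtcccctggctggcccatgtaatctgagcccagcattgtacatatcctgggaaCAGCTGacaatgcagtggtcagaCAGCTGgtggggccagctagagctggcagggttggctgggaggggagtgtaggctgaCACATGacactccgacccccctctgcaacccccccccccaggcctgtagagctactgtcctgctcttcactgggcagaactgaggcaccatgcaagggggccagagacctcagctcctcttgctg
Myog: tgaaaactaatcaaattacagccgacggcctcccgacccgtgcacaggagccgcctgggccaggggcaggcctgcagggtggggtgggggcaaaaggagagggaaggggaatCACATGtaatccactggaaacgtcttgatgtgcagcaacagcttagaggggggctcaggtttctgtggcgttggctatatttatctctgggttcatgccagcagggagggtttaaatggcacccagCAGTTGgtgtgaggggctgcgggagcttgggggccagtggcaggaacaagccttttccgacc

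Chrnd, the delta subunit (chromosome 1, 87190607 to 87200070, GRCm38), had an FPKM of 0.770, 0.917, 0.956 and 0.939 in the day 0 samples and of 123, 137, 123 and 116 in the day 28 samples. All 4 day 28 samples stood far above the day 0 samples and close together. The mean was 0.895 ± 0.0853 (SD, n = 4) at day 0 and 125 ± 9.05 (SD, n = 4) at day 28, and the gene rose by 6.05 ± 0.07 on the log2 scale (SE; limma, adjusted p = 1.6e-11). Chrng, the fetal gamma subunit (chromosome 1, 87204657 to 87212694), had an FPKM of 0.0156, 0.0966, 0 and 0.0454 at day 0 and of 61.6, 63.1, 62.7 and 43.2 at day 28. It was near 0 in all day 0 samples, and sample d was the lowest of day 28. Chrna1, the alpha subunit that binds acetylcholine (chromosome 2, 73563215 to 73580338), had an FPKM of 4.11, 3.02, 3.41 and 3.68 at day 0 and of 192, 188, 228 and 186 at day 28. The groups did not overlap, and the log2 fold changes of Chrna1 and Chrng were 5.45 ± 0.09 and 5.80 ± 0.12 (SE).

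Chrnb1, the beta subunit, rose from an FPKM of 10.7 to 12.5 at day 0 to 111 to 120 at day 28 (log2 fold change of 3.24). Chrne, the adult epsilon subunit, had an FPKM of 6.72, 6.38, 8.30 and 9.06 at day 0 and of 8.49, 8.21, 10.7 and 8.71 at day 28. These ranges overlapped, and the difference of 0.23 ± 0.11 (SE, log2) did not pass the test (limma, adjusted p = 0.118) and was -0.12 with median-ratio scaling. Hence the 4 subunits other than epsilon rose, while no change was called for epsilon. Musk, the receptor tyrosine kinase that organises the synapse, rose from a mean FPKM of 9.75 to 52.3 (2.33), and Ncam1, an adhesion molecule of denervated fibres, from 0.482 to 9.87 (2.87). Ache, the esterase that breaks down acetylcholine, fell from values of 5.77 to 6.12 at day 0 to values of 1.35 to 2.04 at day 28, by 1.42 on the log2 scale (limma, adjusted p = 6.79e-07). Colq, the collagen tail that anchors the esterase, fell by 0.83, and Ufsp1, which lies next to Ache, fell by 0.67.

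Several myogenic factors rose as well. Of 17 genes of the myogenic factor and HDAC-Dach2 list, 7 (41.2%) rose and 1 (5.88%) fell, against 17.4% and 5.01% over all genes, and 6 rose and 3 fell with median-ratio scaling. Myog had an FPKM of 1.61, 1.61, 2.59 and 2.06 at day 0 and of 118, 121, 131 and 109 at day 28, with a log2 fold change of 5.36 ± 0.11 (SE). Myod1, which commits cells to the muscle lineage, rose by 3.44, Myf6, the most abundant factor of the family in adult muscle, by 2.58 and Runx1, a transcription factor of denervated muscle, by 4.15. Hdac4, a histone deacetylase, rose from a mean FPKM of 2.22 to 10.7. Dach2, a repressor of Myog, had an FPKM of 0.973, 1.09, 0.777 and 0.824 at day 0 and of 0.0181, 0.0302, 0.0490 and 0.0520 at day 28. It was thus near 0 in all day 28 samples, and fell by 0.88 on the log2(FPKM + 1) scale. All its day 28 values lay under the FPKM filter, so that it was tested only through its day 0 values.

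**Figure D2:**
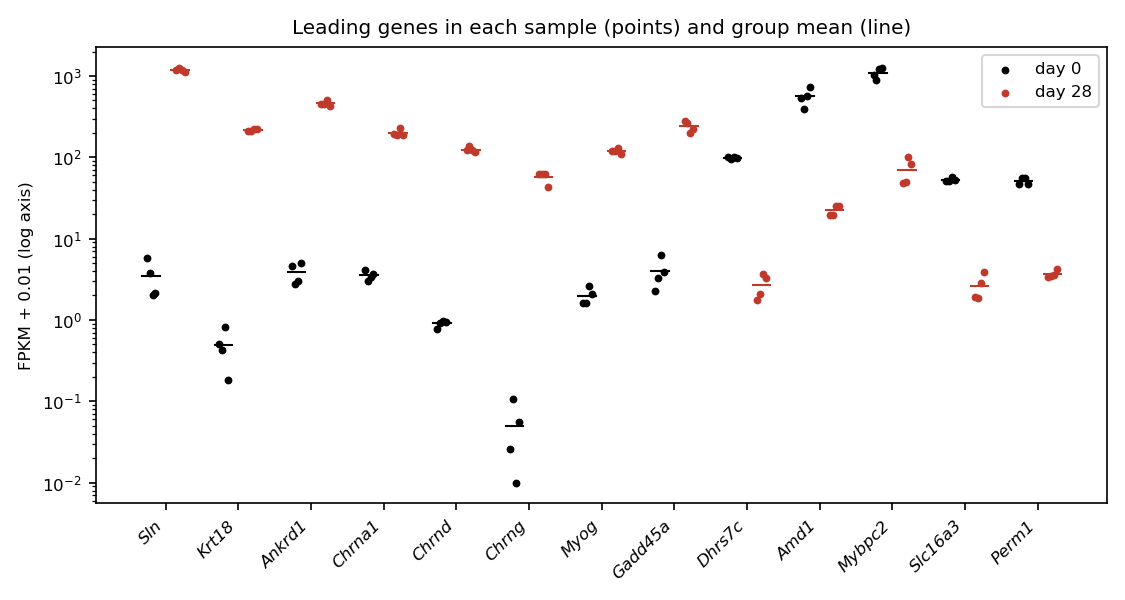
FPKM plus 0.01 on a log axis for 13 genes with large differences, with 1 point per sample and a line at the group mean (day 0 black, day 28 red). The groups did not overlap for any of the 13 genes, and the day 28 samples of Sln lie between 1130 and 1237 while its day 0 samples lie between 2.04 and 5.81.

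Sln, which encodes sarcolipin, an inhibitor of the calcium pump of the sarcoplasmic reticulum, had the largest log2 fold change of the genes named by size. Its FPKM was 5.81, 3.81, 2.04 and 2.15 at day 0 and 1169, 1237, 1169 and 1130 at day 28. The samples within each group were close beside the distance between the groups. The log2 fold change was 8.13 ± 0.22 (SE; limma, adjusted p = 6.16e-09), or 7.78 with median-ratio scaling. Dhrs7c, a dehydrogenase of the sarcoplasmic reticulum (chromosome 11, 67798187 to 67816002), had the largest fall among them, with an FPKM of 99.6, 95.6, 102 and 98.4 at day 0 and of 1.75, 2.06, 3.67 and 3.28 at day 28. The mean was 36.8-fold lower at day 28, and the log2 fold change was -4.79 ± 0.15 (SE). Both belong to the list for excitation-contraction coupling, of which 4 of 25 genes (16%) rose and 7 (28%) fell, against 17.4% and 5.01% over all genes, and 2 rose and 14 fell with median-ratio scaling. Jph2, which joins the T-tubule to the sarcoplasmic reticulum, fell by 1.49 and Hrc, a calcium-binding protein of the sarcoplasmic reticulum, by 0.93, while Cacng1, the gamma subunit of the voltage sensor, rose by 1.17.

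Among ion channels and pumps of the sarcolemma, 6 of 27 genes (22.2%) rose and 9 (33.3%) fell, against 17.4% and 5.01% over all genes, and 4 rose and 11 fell with median-ratio scaling. Kcnn3, a calcium-activated potassium channel, rose from an FPKM of 0.350 to 0.758 at day 0 to 26.8 to 32.4 at day 28 (4.24). Kcna7, a potassium channel, and Scn4b, a sodium channel subunit, fell by 3.06 and 3.04, and Aqp4, the water channel of fast fibres, fell by 2.47. In the dystrophin-glycoprotein complex, the direction of the list depended on the scaling. Of 16 genes, 6 (37.5%) rose and 2 (12.5%) fell with the deposited values and 1 rose and 4 fell with median-ratio scaling. Nos1, the neuronal nitric oxide synthase held at the membrane by the complex, fell by 1.94 under the first.

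Most genes of the stretch-sensing list and several intermediate filament genes rose. Of 15 titin-linked and stretch genes, 11 (73.3%) rose and 1 (6.67%) fell, against 17.4% and 5.01% over all genes, and 7 rose and 1 fell with median-ratio scaling. Ankrd1, an ankyrin repeat protein that binds titin (chromosome 19, 36111961 to 36120099), had an FPKM of 4.59, 2.79, 3.02 and 4.95 at day 0 and of 451, 448, 509 and 430 at day 28 (6.60 ± 0.14, SE, log2). Igfn1, a sarcomeric protein, rose by 6.44 and Csrp3, the muscle LIM protein, by 3.36, while Fhl3, another LIM protein, fell by 1.73. Krt18, a keratin of simple epithelia that is also made in muscle, had an FPKM of 0.497, 0.420, 0.821 and 0.175 at day 0 and of 211, 211, 221 and 222 at day 28 (7.22 ± 0.11, SE, log2). Its partner Krt8 had a mean FPKM of 0.0329 at day 0 and 82.3 at day 28. Krt8 overlaps 101 bases of the antisense gene Gm36026, and the strand of counting is not given in the sources used here. Antisense genes also overlap 1149 bases of Myh7, 1742 of Ctsl, 606 of Txnip, 515 of Myh1, 510 of Synm, 485 of Pycard and 451 of Ckm, and fewer bases of other named genes. Of the 12 keratins and intermediate filaments, 7 (58.3%) rose and 1 (8.33%) fell. Lmna, a nuclear lamin, rose by 2.01 and Nes, the nestin gene, by 1.77, while Synm, which ties desmin to the membrane, fell by 2.28. Of 7 keratinocyte markers, 2 passed the filter and none was called, and their sum was 2.73 to 3.17 at day 0 and 2.34 to 3.80 at day 28.

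Contractile genes differed by fibre type. Of 10 developmental isoforms, 7 (70%) rose and none fell, against 17.4% and 5.01% over all genes, although Acta2 was called lower with median-ratio scaling. Tnni1 and Tnnc1, which embryonic and slow fibres share, are counted here and again among the slow-fibre genes. Myh3, the embryonic myosin heavy chain, had an FPKM of 0.996, 1.22, 0.573 and 0.426 at day 0 and of 35.3, 32.7, 33.0 and 29.8 at day 28 (4.24). Myl6b, an embryonic light chain, rose by 3.27, Tnnt2, the cardiac and embryonic troponin T, by 3.21, Myl4 by 2.67 and Myh8, the perinatal heavy chain, by 2.50.

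Of 15 fast-fibre genes, 2 (13.3%) rose and 10 (66.7%) fell, against 17.4% and 5.01% over all genes, and 0 rose and 11 fell with median-ratio scaling. The median log2 fold change was -0.88. Mybpc2, the fast myosin binding protein C (chromosome 7, 44501699 to 44524656), had an FPKM of 1030, 890, 1208 and 1263 at day 0 and of 48.0, 49.6, 99.8 and 82.0 at day 28. The mean was 15.7-fold lower, samples a and b were the lowest of day 28, and 192 bases overlap the antisense gene Gm44646. Mylk2, the kinase of fast myosin light chain, fell by 3.36 and Myoz3, a Z-disc protein, by 2.25. Myh4, the heavy chain of type IIb fibres, had an FPKM of 4879, 4412, 6504 and 6331 at day 0 and of 2427, 3153, 2727 and 2209 at day 28 (-1.07). Myh1, the heavy chain of type IIx fibres, and Actn3, the fast alpha-actinin, rose by 0.90 and 0.65, and neither was called with median-ratio scaling. Tnnc2, the fast troponin C, had a mean FPKM of 0.832 at day 0 and 0.908 at day 28 and was not called. That level was far below the other fast troponins. Tnnc2 overlaps the antisense gene Ube2c, and reads where they overlap cannot be told apart without strand.

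Of 12 slow-fibre genes, 8 (66.7%) rose and none fell, against 17.4% and 5.01% over all genes, and 7 rose with median-ratio scaling. Their median log2 fold change was 1.27, or 0.88 with median-ratio scaling. Myh7, the slow heavy chain, had an FPKM of 47.6, 26.1, 26.0 and 23.3 at day 0 and of 179, 159, 86.3 and 93.8 at day 28. Samples a and b of day 28 stood above samples c and d, and all lay above day 0. The log2 fold changes were 2.27 for Tnnt1 (slow troponin T), 2.19 for Tnni1 (slow troponin I), 2.03 for Myh7, 1.62 for Tnnc1 (slow troponin C), 1.28 for Casq2 (cardiac calsequestrin), 1.27 for Atp2a2 (the slow calcium pump), 1.26 for Tpm3 (slow tropomyosin) and 1.11 for Myl2 (slow regulatory light chain). Myl2 was called although its groups overlapped, and it was not called with median-ratio scaling. The samples within a group differed in the same order for most of these genes. At day 0, sample 1 was the highest for 9 of the 12 genes and sample 4 the lowest for 9, and at day 28 sample a was the highest for 10.

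The slow-fibre genes also set day 28 apart from the earlier late time points. Against day 21, 30 of 18412 genes (0.163%) were called, 22 higher and 8 lower, and 7 of the 22 were slow-fibre genes. Against day 14, 203 of 18653 genes (1.09%) were called, 106 higher and 97 lower, and 8 of the 12 slow-fibre genes were higher. Myh7 was at 25.8, 53.2, 9.37 and 14.1 at day 14 and at 28.9, 29.0, 17.7 and 13.1 at day 21. All 4 day 28 values lay above both groups, with log2 differences of 2.51 ± 0.47 against day 14 and 2.49 ± 0.30 against day 21 (SE; limma, adjusted p = 0.0247 and 0.0191). Tnnc1 was higher by 2.53 and 2.46, Tnni1 by 2.39 and 1.98, Tnnt1 by 1.96 and 1.30 and Tpm3 by 1.66 and 1.82, against day 14 and day 21 in turn. The number of calls against day 21 depended on single samples, while the differences themselves moved little. With each sample left out in turn, 2 to 42 genes and 0 to 8 slow-fibre genes were called, and the lowest counts were those without sample b of day 28. Over these 8 fits the log2 difference was 2.28 to 2.66 for Myh7 (highest limma adjusted p = 0.0911) and 1.16 to 1.40 for Tnnt1 (0.0688). Against day 14, 129 to 200 genes and 2 to 8 slow-fibre genes were called with each sample left out.

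**Figure D3:**
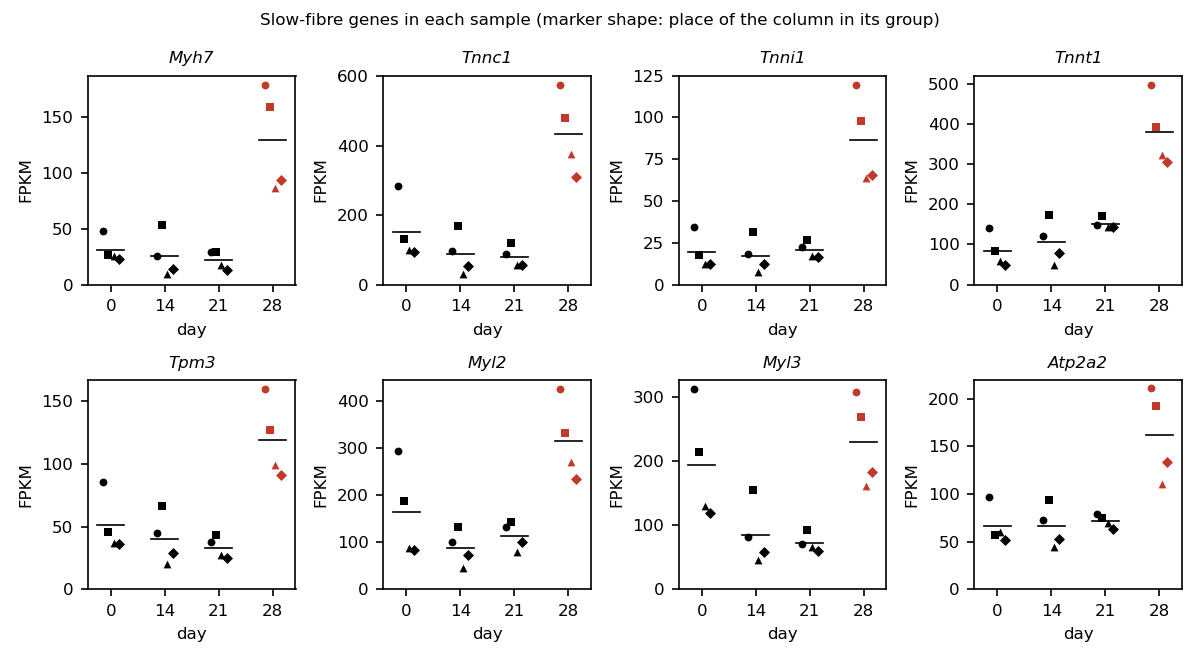
FPKM of 8 slow-fibre genes (vertical axes) at days 0, 14, 21 and 28 (horizontal axes), with 1 point per sample and a line at the mean of 4 samples. Day 28 is red, and the marker shape gives the place of a column in its group, which ties no samples across days. For Myh7 the day 28 samples lie between 86.3 and 179 and all samples of the other 3 days at or below 53.2.

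Other genes that differed from the earlier late time points were named by size. Padi2, a peptidyl arginine deiminase, fell from a mean FPKM of 32.7 at day 0 to 5.85 at day 28, and was lower at day 28 than at day 21 by 0.68 and than at day 14 by 0.67 (log2). Dusp26, a dual specificity phosphatase, fell from 13.2 to 4.38, and was lower than at day 21 by 0.80 and than at day 14 by 1.13. Cdkn1a, the cell cycle inhibitor p21, rose from 3.20 at day 0 to 40.9 at day 28, a level that was lower than at day 14 by 1.57. Tmem100, a transmembrane protein of endothelium, rose from 12.4 to 23.8, and its level was lower than at day 14 by 1.74. Trim63 was lower than at day 14 by 1.23.

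Glycolytic and mitochondrial genes were among those that fell. Of 27 genes for glycolysis and glycogen, 22 (81.5%) fell and 1 (3.7%) rose, against 5.01% and 17.4% over all genes, and 24 fell with median-ratio scaling. The median log2 fold change of the list was -1.52, against 0.20 over all genes tested. Slc16a3, the lactate exporter of glycolytic fibres (chromosome 11, 120948480 to 120960868), had an FPKM of 51.6, 50.5, 56.6 and 53.3 at day 0 and of 1.93, 1.84, 2.87 and 3.83 at day 28 (-3.94). Eno3, muscle enolase, had an FPKM of 2681, 2593, 2561 and 2587 at day 0 and of 424, 409, 630 and 620 at day 28 (-2.35), with samples a and b below c and d. Fbp2, muscle fructose bisphosphatase, fell by 2.68, and Gapdh, which is often used as a reference gene, fell by 0.89 from 194 to 200 at day 0 to 90.8 to 127 at day 28. Gbe1, the glycogen branching enzyme, was the only member that rose (0.82), and it was not called with median-ratio scaling. Of 10 genes for phosphagens and adenylates, 5 (50%) fell and 1 (10%) rose. Ckm, muscle creatine kinase, fell by 2.01 and Ckmt2, its mitochondrial form, by 2.59, and Ampd3, the AMP deaminase of non-muscle and atrophying tissue, rose by 2.19.

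Of 42 genes for the TCA cycle and fatty acid oxidation, 20 (47.6%) fell and 0 rose, and of 73 nuclear genes of the respiratory chain, 18 (24.7%) fell and 0 rose, against 5.01% and 17.4% over all genes. With median-ratio scaling, 34 and 58 fell, where 9.71% of all genes did. Idh2, the mitochondrial isocitrate dehydrogenase, fell by 1.79, Acaa2, a thiolase, by 1.73, Fabp3, the fatty acid carrier of oxidative muscle, by 1.46 and Cox7a1, the muscle isoform of a cytochrome oxidase subunit, by 1.58. Of the 13 mRNAs of the mitochondrial genome, 10 (76.9%) fell and none rose, and 12 fell with median-ratio scaling. mt-Co3 had an FPKM of 477, 895, 561 and 569 at day 0 and of 243, 218, 214 and 178 at day 28 (-1.52). Among 18 regulators of mitochondria, 7 (38.9%) fell and 1 (5.56%) rose, and 10 fell with median-ratio scaling. Perm1, a muscle regulator that acts with PGC-1 and ERR (chromosome 4, 156215868 to 156221307), fell from 46.7 to 55.7 at day 0 to 3.37 to 4.26 at day 28 (-3.49). Nr4a1, an orphan nuclear receptor, fell by 2.40 and Esrra, the receptor ERR alpha, by 0.98. Esrrg, the related ERR gamma, rose by 0.76 and was not called with median-ratio scaling.

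Of 11 genes of polyamine metabolism, 2 (18.2%) fell and 1 (9.09%) rose, against 5.01% and 17.4% over all genes, and 2 fell and 0 rose with median-ratio scaling. Amd1, which makes the aminopropyl donor of polyamines (chromosome 10, 40287458 to 40302186), had an FPKM of 539, 397, 569 and 741 at day 0 and of 19.3, 19.7, 25.2 and 25.3 at day 28. The mean was 25.1-fold lower (-4.57 ± 0.17, SE, log2). Its pseudogenes Amd-ps4 and Amd-ps3 fell by 3.75 and 3.71, and reads of Amd1 could be split among these copies. Smox, spermine oxidase, fell by 3.60, and Odc1, ornithine decarboxylase, rose by 0.93 and was not called with median-ratio scaling. The other genes that fell most were Odf3l2 (-4.07), Mlf1 (-3.88) and Smco1 (-3.69).

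Most proteasome and lysosomal genes rose, while the counts for autophagy genes and ubiquitin ligases were smaller. Of 32 proteasome subunits, 22 (68.8%) rose and 0 fell, and 12 rose with median-ratio scaling. For 31 of the 32, all day 28 values lay above all day 0 values, as they did for 43.3% of all genes tested. Psmc1, an ATPase subunit, had an FPKM of 83.3, 80.4, 79.9 and 82.5 at day 0 and of 236, 237, 254 and 231 at day 28 (1.54 ± 0.05, SE, log2). Psmb5, the chymotrypsin-like subunit, rose by 1.45 and Psmc3 by 1.30. Of 30 lysosomal genes, 21 (70%) rose and 1 (3.33%) fell, and 6 rose and 1 fell with median-ratio scaling. Ctss, Lgmn and Ctsl, which encode lysosomal proteases, rose by 2.11, 2.00 and 1.86. Macrophages are also rich in these proteases, 17 of 20 macrophage markers rose in the same samples (sums of 198 to 287 and 662 to 761), and their part in the lysosomal values was not tested. Of 31 autophagy genes, 6 (19.4%) rose and none fell, a share near the 17.4% over all genes, and 2 rose and 3 fell with median-ratio scaling. Map1lc3a, an LC3 of the autophagosome membrane, had an FPKM of 119, 114, 121 and 98.7 at day 0 and of 630, 588, 660 and 662 at day 28 (2.48), and Nbr1, a cargo receptor, rose by 1.17. Of 6 calpain genes, 2 (33.3%) rose and 1 (16.7%) fell, and 0 rose and 2 fell with median-ratio scaling. Capn3, the muscle calpain, fell by 1.02.

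Among 22 ubiquitin ligases of muscle, 6 (27.3%) rose and 4 (18.2%) fell, against 17.4% and 5.01% over all genes, and 3 rose and 5 fell with median-ratio scaling, where the median of the list was -0.13 in place of 0.21. Trim63, the ligase MuRF1 that is widely used as an atrophy marker, had an FPKM of 86.6, 76.1, 107 and 95.6 at day 0 and of 52.9, 52.5, 49.7 and 62.2 at day 28. All day 28 values lay below all day 0 values, and it fell by 0.73 ± 0.11 (SE, log2; limma, adjusted p = 0.000259). Fbxo32, the ligase atrogin-1, had an FPKM of 0.791, 0.807, 1.14 and 0.894 at day 0 and of 1.22, 2.00, 0.650 and 1.11 at day 28. These ranges overlapped, and the difference of 0.21 did not pass the test (limma, adjusted p = 0.287). The level of Fbxo32 lay far below that of Trim63 in all 8 samples, where the log2(FPKM + 1) scale understates a change. Asb2, which targets desmin, had a mean FPKM of 183 at day 0 and 23.9 at day 28 (-2.89), and Kbtbd13, a ligase adaptor of muscle, fell from 9.31 to 1.41. Klhl41, Mdm2 and Fbxo30 rose by 1.06, 1.05 and 1.01.

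Genes for protein synthesis and folding were mostly higher. Of 83 cytosolic ribosomal proteins, 74 (89.2%) rose and 1 (1.2%) fell, against 17.4% and 5.01% over all genes, and 36 rose and 1 fell with median-ratio scaling. The member that fell was Rpl3l, the striated muscle paralog of Rpl3, with an FPKM of 269, 281, 276 and 229 at day 0 and of 26.9, 26.6, 34.1 and 40.9 at day 28 (-3.02). Rpl3 itself had an FPKM of 40.6, 34.9, 31.9 and 30.0 at day 0 and of 187, 181, 187 and 178 at day 28 (2.39). The level of Rpl3l was thus above that of Rpl3 in every day 0 sample and below it in every day 28 sample. Of 21 heat shock and chaperone genes, 15 (71.4%) rose and 1 (4.76%) fell, and 10 rose and 3 fell with median-ratio scaling. Hspb8, a small heat shock protein, rose from a mean FPKM of 230 to 1391 (2.59) and Hspb7 by 1.89.

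**Figure D4:**
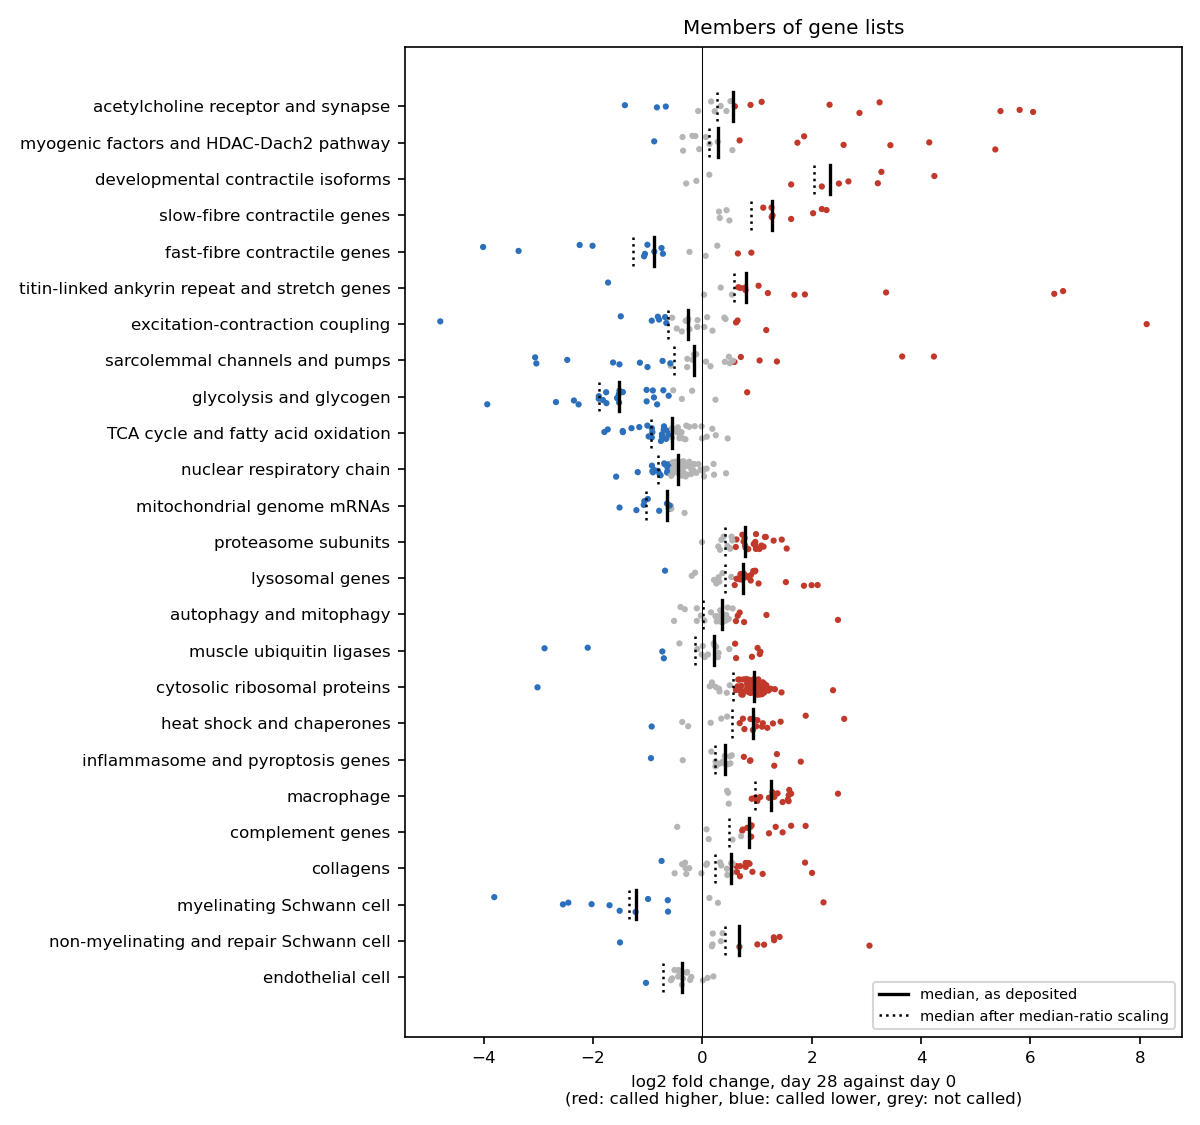
Log2 fold change of the tested members of 25 gene lists (horizontal axis, day 28 against day 0), with 1 point per gene. Red points were called higher, blue lower and grey not called. Solid ticks give the median with the deposited values and dotted ticks the median with median-ratio scaling, for example -1.52 for glycolysis and glycogen and 0.94 for cytosolic ribosomal proteins with the deposited values.

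The study is about the NLRP3 inflammasome, a complex that activates caspase-1, which cleaves interleukin-1 beta, interleukin-18 and gasdermin D. Its genes were at low levels in whole muscle. Nlrp3, the sensor (chromosome 11, 59541568 to 59566956), had an FPKM of 0.0640, 0.0165, 0.0484 and 0.124 at day 0 and of 0.440, 0.308, 0.0894 and 0.267 at day 28. Sample c of day 28 lay below the highest day 0 sample, and these values stand for 1 to 8 fragments at day 0 and 6 to 30 at day 28. The difference of 0.26 ± 0.08 (SE, log2) had a limma adjusted p of 0.0234 but was under 1.5-fold, so that it was not called. At such low values the log2(FPKM + 1) scale understates the change, so that the 1.5-fold threshold was hard to reach. The exact permutation test gave p = 0.0571 for Nlrp3 (two-sided, n = 4 against 4). With 8 samples the smallest two-sided p of the exact permutation test is 0.0286, which Casp1, Gsdmd, Pycard, Il1b, Il18, Trim63 and Gapdh reached. Any gene whose groups do not overlap reaches it, and of all genes tested 43.3% lay wholly above and 10.7% wholly below day 0. Il18 had an FPKM of 1.95, 1.88, 1.91 and 1.53 at day 0 and of 4.16, 3.87, 4.58 and 3.98 at day 28 and rose by 0.87 (limma, adjusted p = 9.14e-06).

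Casp1, Gsdmd, Pycard and Il1b were higher in all 4 day 28 samples than in any day 0 sample, but none reached 1.5-fold on the log2(FPKM + 1) scale. Their log2 differences were 0.51, 0.51, 0.24 and 0.37. Casp1, the protease, had an FPKM of 0.577 to 1.25 at day 0 and of 1.59 to 1.84 at day 28, and Gsdmd, the pore protein, of 2.99 to 3.09 and 4.63 to 4.93. Pycard, the adaptor ASC, had an FPKM of 0.138 to 0.290 at day 0 and of 0.360 to 0.430 at day 28. Il1b had an FPKM of 0 to 0.103 at day 0 and of 0.179 to 0.562 at day 28, or 0 to 3 and 6 to 18 fragments. Of the 21 tested genes of the inflammasome and pyroptosis list, 6 (28.6%) rose and 1 (4.76%) fell, against 17.4% and 5.01% over all genes, and 5 rose and 2 fell with median-ratio scaling. Tlr4, a receptor upstream of the complex, rose by 1.80, Panx1, a channel, by 1.36 and Ninj1, which ruptures the membrane of dying cells, by 1.31. Txnip, which binds thioredoxin, fell by 0.94. In the same samples 17 of 20 macrophage markers rose, with summed FPKM of 198 to 287 at day 0 and 662 to 761 at day 28, and their part in the values of the inflammasome genes was not tested.

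Genes for cell death and the p53 pathway rose in part. Of 25 apoptosis genes, 8 (32%) rose and 1 (4%) fell, and 5 rose and 1 fell with median-ratio scaling. Tnfrsf12a, the TWEAK receptor, rose by 1.67. Of 18 genes of the p53, Gadd45 and Cdkn1a list, 5 (27.8%) rose and 3 (16.7%) fell, against 17.4% and 5.01% over all genes. Gadd45a, a stress-induced regulator of growth arrest (chromosome 6, 67035096 to 67037457), had an FPKM of 2.28, 3.30, 6.28 and 3.93 at day 0 and of 281, 262, 201 and 223 at day 28. It rose by 5.66 ± 0.21 (SE, log2) and overlaps 337 bases of the antisense gene E230016M11Rik. Cdkn1a and Eda2r, a receptor of the TNF family, rose by 3.32 and 3.00. Gadd45b and Gadd45g, the relatives of Gadd45a, fell by 1.63 and 1.23, and Ccng1, cyclin G1, fell by 0.67. Of 20 cell cycle genes, 4 (20%) rose and 0 fell, a share near the 17.4% over all genes, and 2 rose with median-ratio scaling, with Rrm2, a ribonucleotide reductase subunit, at 2.79. Among the other genes with large differences, Aif1l, which is related to an actin-bundling protein of macrophages, rose by 5.67 and Mybph, a myosin binding protein, by 4.59. Aif1l overlaps 168 bases of the antisense gene Gm13442 and Mybph 1162 bases of Adora1.

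Most macrophage markers rose, as did several neutrophil markers. Of 20 macrophage markers, 17 (85%) rose and 0 fell, and 16 rose with median-ratio scaling. Their summed FPKM was 198 to 287 at day 0 and 662 to 761 at day 28. Mpeg1, the pore protein of macrophages, had an FPKM of 2.50, 2.03, 2.99 and 2.66 at day 0 and of 16.9, 19.3, 21.3 and 17.5 at day 28 (2.48), and Tyrobp, a signalling adaptor of myeloid cells, rose by 1.59. Of 9 neutrophil markers, 4 passed the filter and 3 rose, and the sum was 1.28 to 2.26 at day 0 and 21.1 to 41.5 at day 28. S100a8, a calcium-binding protein of neutrophils, had an FPKM of 0.0935, 0.386, 0.283 and 0.0908 at day 0 and of 23.1, 15.4, 17.3 and 35.0 at day 28 (4.23). This gene alone made up most of the neutrophil sum in each day 28 sample. Of 10 T and NK cell markers tested, 1 (10%) was called, a share below the 17.4% over all genes. It was Gzmb, which was listed at 0 in all day 0 samples and at 0.373 to 0.953 at day 28. The sum over the 14 listed T and NK cell markers was low but did not overlap, at 0.902 to 1.67 at day 0 and 4.03 to 5.38 at day 28. Of 4 B cell markers tested, 1 was called, Jchain, the joining chain of secreted antibodies (1.36). The B cell sum was 0.542 to 1.18 at day 0 and 1.27 to 4.41 at day 28. None of 8 mast cell markers was called.

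Complement, chemokine and antigen presentation genes moved beside these markers, and the part of cell numbers in their values was not tested. Of 27 chemokine and cytokine genes, 14 (51.9%) rose and 1 (3.7%) fell, against 17.4% and 5.01% over all genes, and 12 rose and 3 fell with median-ratio scaling. Ccl8, a monocyte chemoattractant, rose from 0.769 to 1.23 at day 0 to 29.0 to 42.1 at day 28 (4.17), Tgfb1 rose by 2.20 and Ccl7 by 2.02, and Il15, a cytokine of muscle, fell by 0.97. Of 16 complement genes, 11 (68.8%) rose and 0 fell, and 5 rose and 1 fell with median-ratio scaling. C4b and C1qb, components of the classical pathway, rose by 1.89 and 1.62. C1qa, C1qb and C1qc are counted here and again among the macrophage markers. Of 15 genes for the immunoproteasome and antigen presentation, 7 (46.7%) rose and 4 did so with median-ratio scaling, led by H2-Eb1 (2.15) and H2-Aa (2.08) of MHC class II. Of 22 interferon-stimulated genes, 6 (27.3%) rose, against 17.4% over all genes, and with median-ratio scaling 0 were called.

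Markers of myelinating Schwann cells fell and several markers of repair Schwann cells rose. Of 13 myelinating markers, 10 (76.9%) fell and 1 (7.69%) rose with either scaling, and their summed FPKM was 141 to 300 at day 0 and 40.2 to 57.4 at day 28. Mbp, the myelin basic protein, had an FPKM of 24.5, 27.1, 12.7 and 11.9 at day 0 and of 2.12, 1.96, 2.79 and 2.09 at day 28. The groups did not overlap, although the first pair of day 0 samples stood above the other pair, and the log2 fold change was -2.55 ± 0.24 (SE). Prx, which encodes periaxin of the myelin sheath, fell by 2.45, and Gldn, a matrix protein of the node of Ranvier, rose by 2.22. Of 13 markers of non-myelinating and repair Schwann cells tested, 7 (53.8%) rose and 1 (7.69%) fell, against 17.4% and 5.01% over all genes, with sums of 9.42 to 14.6 and of 21.7 to 40.1. Ngfr, the p75 neurotrophin receptor, had an FPKM of 0.584, 0.311, 0.475 and 0.256 at day 0 and of 5.84, 11.9, 12.2 and 14.8 at day 28 (3.06), and S100b, a general Schwann cell marker, fell by 1.51.

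**Figure D5:**
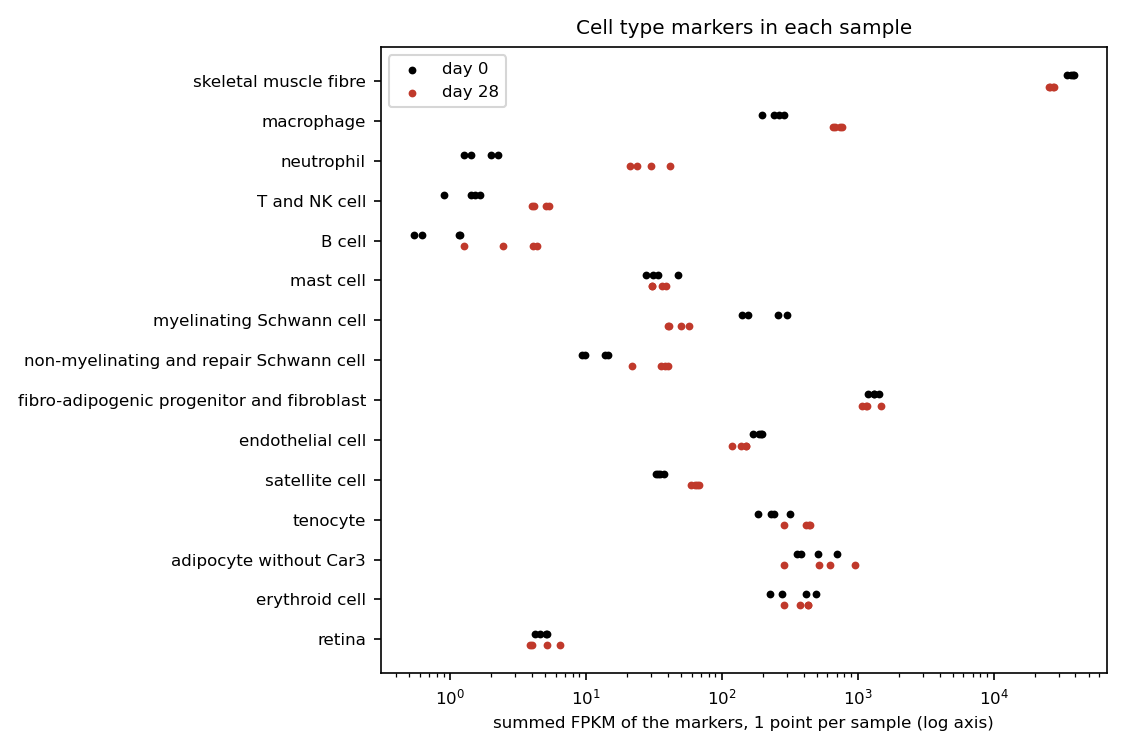
Summed FPKM of the markers of 15 cell types (horizontal log axis), with 1 point per sample (day 0 black, day 28 red). The day 28 sums lie above all day 0 sums for macrophages (662 to 761 against 198 to 287) and below them for myelinating Schwann cells (40.2 to 57.4 against 141 to 300). The sums of erythroid cells, mast cells and the retina overlap.

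Matrix genes rose in part and the direction of some lists depended on the scaling. Of 29 collagens, 12 (41.4%) rose and 1 (3.45%) fell, and 4 rose and 4 fell with median-ratio scaling. Col19a1, a minor collagen, had an FPKM of 0.117 to 0.352 at day 0 and of 3.52 to 4.35 at day 28 (2.01), and Col8a1 rose by 1.88. Of 34 matrix proteins and remodelling enzymes, 13 (38.2%) rose and 1 (2.94%) fell, and 10 rose and 4 fell with median-ratio scaling. Postn, periostin, had an FPKM of 4.59, 3.90, 2.96 and 2.31 at day 0 and of 72.0, 60.6, 35.9 and 52.5 at day 28 (3.65), and Timp1, an inhibitor of matrix proteases, rose by 3.50. Of 14 markers of fibro-adipogenic progenitors and fibroblasts, 3 (21.4%) rose and 0 fell, near the 17.4% that rose over all genes, and 1 rose and 3 fell with median-ratio scaling. Their sums overlapped, at 1199 to 1427 and 1077 to 1486. Of 8 tenocyte markers, 2 (25%) rose and 0 fell, against 17.4% and 5.01% over all genes, and 2 rose and 2 fell with median-ratio scaling. Scx, the transcription factor of tendon cells, rose from 3.69 to 4.85 at day 0 to 30.9 to 37.7 at day 28 (2.77). Tnmd, the defining membrane protein of tenocytes, had values of 24.8 to 52.7 and 40.1 to 55.8 that overlapped.

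For other resident cells, few markers were called. Of 16 endothelial markers, 1 (6.25%) fell, near the 5.01% over all genes. It was Kdr, the VEGF receptor (-1.03), and 10 fell with median-ratio scaling. The sums were 169 to 197 at day 0 and 119 to 152 at day 28, with no overlap. Of 12 pericyte and smooth muscle markers, 1 (8.33%) rose and 3 (25%) fell, against 17.4% and 5.01% over all genes, and 0 rose and 6 fell with median-ratio scaling. Their sum went the other way, at 818 to 968 at day 0 and 1125 to 1224 at day 28. It includes Des, also listed as a muscle fibre marker, whose part was not tested. Of 10 satellite cell markers, 4 (40%) rose and 0 fell, and 2 rose with median-ratio scaling. Pax7, the defining factor of satellite cells, had an FPKM of 0.526 to 0.720 at day 0 and of 0.846 to 1.14 at day 28, a difference of 0.28 that was not called. Of 13 adipocyte markers, 2 (15.4%) rose and 1 (7.69%) fell, near the 17.4% and 5.01% over all genes. Car3, carbonic anhydrase 3, which slow muscle fibres also make, rose from a mean FPKM of 1079 to 6346 (2.56), and the sum of the list without Car3 overlapped between groups (357 to 707 and 289 to 960). None of 5 erythroid markers tested was called.

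Signalling genes that control muscle mass moved in both directions. Of 27 genes for growth factors and TGF-beta signalling, 13 (48.1%) rose and 2 (7.41%) fell, against 17.4% and 5.01% over all genes, and 10 rose and 3 fell with median-ratio scaling. Mstn, myostatin, which limits muscle growth, had an FPKM of 34.7 to 53.6 at day 0 and of 4.60 to 7.07 at day 28, with no overlap (-2.75). Acvr2b, a receptor of myostatin, fell by 0.87, and Fst, follistatin, which binds myostatin, rose by 2.12. Id2, an inhibitor of myogenic factors, rose by 2.49. Of 22 genes for insulin, Akt, mTOR and FoxO signalling, 9 (40.9%) rose and 4 (18.2%) fell, and 3 rose and 5 fell with median-ratio scaling. Deptor, an inhibitor of mTOR, rose by 1.54 and Mtor itself by 1.45. Of 13 imprinted growth genes tested, 6 (46.2%) rose and 0 fell. H19, a non-coding RNA of fetal muscle, had an FPKM of 89.2, 69.7, 78.2 and 81.8 at day 0 and of 744, 589, 526 and 476 at day 28 (2.84), and Peg3 rose by 2.38.

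Stress response genes were also examined. Of 19 genes of the integrated stress response, 9 (47.4%) rose and 1 (5.26%) fell, against 17.4% and 5.01% over all genes, and 6 rose and 2 fell with median-ratio scaling. Mthfd2, a mitochondrial folate enzyme, and Slc7a5, an amino acid transporter, rose by 2.37 and 2.19, and Chac1, a glutathione-degrading enzyme, fell by 2.21. Of 23 antioxidant genes tested, 12 (52.2%) rose and 2 (8.7%) fell, and 6 rose and 2 fell with median-ratio scaling. Gpx3, a glutathione peroxidase, had an FPKM of 145, 123, 127 and 123 at day 0 and of 763, 843, 628 and 578 at day 28 (2.42). Of 18 circadian clock genes, 2 (11.1%) rose and 1 (5.56%) fell, against 17.4% and 5.01% over all genes, and 1 rose and 4 fell with median-ratio scaling. Of single members, Per2, a repressor of the clock, rose by 1.31 and Nr1d1, a nuclear receptor of the clock, fell by 0.76. The time of day of sampling was not among the values used here.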

How the data were processed

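RNA of GAS muscle was sequenced as paired ends on an Illumina instrument. The submitters' processing notes name CASAVA, HISAT2 2.1.0, DESeq2 and GRCm38, and the tool that counted fragments, its strand setting and its annotation are not given in the sources used here. The authors deposited FPKM values, 1 per gene and sample, and 0 columns of per-sample values were left unused. Multiplying by GENCODE mouse release 21 exon lengths (33356 of 33397 genes, 41 without) gave whole fragments within 0.02 for 99.3% of values under 200 fragments, which is where the depths come from. A floor of 3 fragments and such depths cover counting error only.

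Log2(FPKM + 1) of the 4 day 28 and 4 day 0 samples was tested with limma 3.58.1 (lmFit and eBayes with a variance trend, R 4.3.3) with Benjamini-Hochberg adjustment, after the FPKM filter, and in the same way against days 21 and 14. On simulated data, 163 of 200 genes changed 2-fold (81.5%) were recovered for day 28 versus day 0, with 6 false calls among 18549 genes. Only those 200 genes were changed, whereas 4061 genes were called in the measured data, where the split between directions depended on the scaling. The simulation therefore gives no error rate for the reported calls. Genes of the study were also tested by exact permutation. Named were the 12 genes that rose and 12 that fell most without overlap at a mean FPKM of at least 1, the genes the study measured, up to 3 members per direction of each of 57 gene lists, or all members of lists of 12 or fewer, and the 4 largest per direction against days 21 and 14. Genes without a gene name were left out, and some genes of this rule are not reported here. The members and lists were chosen with earlier results of these data known, and Chrnb1, Chrne, Ncam1, Myf6, Hdac4, Tnnc2, Nnat and Cfd after their values were seen. Alternatives were other scalings, pseudocounts, filters, thresholds and fits, and leaving out each sample.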

Additional observations from a re-analysis of the deposited data

Results flagged for a closer look

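For 34 named genes, the distance of the highest or lowest of the 4 samples to its neighbour was divided by the range of the group, in 68 groups in all. In 6 of them this ratio passed Dixon's critical value, and chance alone flags about 1 in 20 groups. At day 28, sample d of Chrng was the lowest (0.935), at 43.2 against 61.6 to 63.1, and sample c of Chrna1 the highest (0.848), at 228 against 186 to 192. At day 0, sample 2 of Odf3l2 was the highest (0.896), at 22.7 against 15.7 for the next, and sample 4 of Mlf1 the highest (0.872), at 199 against 171 to 174. Sample 1 of Pycard was the highest of day 0 (0.921), at 0.290 against 0.138 to 0.149, and sample 4 of Il18 the lowest (0.852), at 1.53 against 1.88 to 1.95. The 6 flags fell on different genes and on 5 different samples.

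Several named genes differed between day 28 and an earlier late time point, which is the difference of the changes from day 0, since the day 0 values cancel. Against day 21, the log2 differences were 2.49 for Myh7, 2.46 for Tnnc1, 1.98 for Tnni1, 1.82 for Tpm3 and 1.30 for Tnnt1 (limma, adjusted p = 0.0115 to 0.0191). They were -0.87 for Gsta1, a glutathione transferase, -0.80 for Dusp26, -0.72 for H60b, a ligand of an NK cell receptor, and -0.68 for Padi2 (adjusted p = 0.0115 to 0.0279). The number of calls against day 21 fell from 30 to 2 without sample b of day 28 and to 12 without sample a. The differences moved little with any of the 8 samples left out, at 2.28 to 2.66 for Myh7, 2.31 to 2.67 for Tnnc1 and 1.81 to 2.11 for Tnni1, with highest limma adjusted p-values of 0.0911, 0.0688 and 0.0688. Against day 14, the slow-fibre genes were higher by 2.51 (Myh7), 2.53 (Tnnc1), 2.39 (Tnni1), 1.66 (Tpm3) and 1.96 (Tnnt1). Aif1l was higher by 1.08 and Il18 by 0.64, and Trim63 differed by -1.23, Dusp26 by -1.13 and Padi2 by -0.67. The genes with the largest falls from day 14 were Mir1970 (-1.78), Tmem100 (-1.74), Cdkn1a (-1.57) and Fkbp1a-ps2 (-1.52), the last a pseudogene that shares sequence with Fkbp1a and was listed at 0 in all day 0 samples. Adjusted p-values against day 14 were 0.000947 to 0.0320 (limma).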

How the results depend on the processing

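No paired analysis was possible because the columns carry letters or numbers that are not tied to the replicate numbers of the labels, and nothing ties samples of different time points to the same animal. Against day 0, the 4061 calls (3155 higher, 906 lower) became 10687 (8549 higher, 2138 lower) without a fold threshold and 1405 (996 higher, 409 lower) with a 2-fold threshold. They became 6958 (5617 higher) with a pseudocount of 0.1, 7254 (6353 higher) with TPM, and 7157 (5784 higher, 1373 lower) with voom on recovered fragments. Median-ratio scaling gave 1385 higher and 1756 lower, and quantile normalization 1554 higher and 1579 lower. With each sample left out the total was 3982 to 4245. Against day 21, the 30 calls became 14 with a 2-fold threshold, 1 without a filter, 48 in a fit of all 32 samples, 102 with voom, and 2 to 42 with each sample left out. Against day 14, the 203 calls became 682 without a fold threshold, 59 with a 2-fold threshold, 127 without a filter, 366 with voom, and 129 to 200 with each sample left out. The cause was not tested.

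For single genes, Fbxo32 was -0.021 with quantile normalization, Chrne -0.12 with median-ratio scaling and -0.0771 with quantile normalization, Tnnc2 -0.12 and -0.16, and Myl3 -0.0815 with median-ratio scaling. By adjusted p alone, Nlrp3 (0.20 and 0.14) and Pycard (0.15 and 0.11) no longer passed with median-ratio scaling and quantile normalization, nor did Il1b (0.37) in the fit of 32. In the exact permutation test, Casp1 (0.30, p = 0.0571) and Pycard (0.15, p = 0.0857) no longer reached 0.05 with median-ratio scaling. With each sample left out, Nlrp3 was 0.20 to 0.33 (limma, adjusted p = 0.00304 to 0.0604) and Fbxo32 0.0565 to 0.34 (0.0497 to 0.715).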

Other observations

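Cfd, an adipocyte protease of the complement system, and Nnat, an imprinted gene, differed among the day 28 samples more than between the groups, and neither was called. Cfd had an FPKM of 217, 112, 191 and 129 at day 0 and of 119.6, 249, 299.9 and 481 at day 28. Nnat had an FPKM of 10.9, 5.31, 6.91 and 3.62 at day 0 and of 4.98, 5.86, 17.7 and 32.9 at day 28. Sample a was the lowest and sample d the highest of day 28 for both. Both genes were named after their values were seen.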
